A study of Mus musculus with 6 samples.

Results

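A group of 9 transcripts of the complement system and the acute phase response, out of 50763 genes in the count table, were followed in cultured mouse embryonic fibroblasts: Hp, C3, C4b, Cfb, C1s1, C1ra, Serping1, Lcn2 and Saa3. They were picked by gene symbol as haptoglobin, complement components and regulators, and acute phase proteins that stromal cells make. Their levels in these same libraries were already known when they were picked, so the K68R to WT differences of the 9 are given as a description and no test is read from them. The K68R libraries came from embryos carrying a CRISPR-made SOD2 K68R allele, and the WT libraries from embryos with wild-type SOD2. Both genotypes had a C57BL/6 background (strain C57BL/6J in the labels), and in both the fibroblasts were isolated at E13.5 (embryonic day) and cultured briefly. There were 3 libraries of poly(A) RNA per genotype. SOD2 is a mitochondrial enzyme that uses manganese to detoxify superoxide. In K68R an arginine takes the place of a lysine and imitates the form that is not acetylated. The labels do not state whether the K68R embryos were heterozygous or homozygous, or whether the libraries of a genotype came from separate embryos.

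Complement is a cascade of plasma proteases that marks cells and particles for removal. In its classical branch the protease C1r activates C1s, which cleaves C4 and C2, and the resulting enzyme cleaves C3, while factor B forms the C3-cleaving enzyme of the alternative branch. The acute phase response is the rise of secreted defence proteins after injury or infection, driven in liver mainly by interleukin-6 and interleukin-1 through STAT3, C/EBP and NF-kB transcription factors. Fibroblasts and adipocytes make several of the same proteins locally, and the early complement genes are also known to respond to interferon.

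The RefSeq promoter table (build GRCm38.p6, not the mm39 build of the counts) held 5 of the 9 genes, namely C3, C1ra, C1s1, Lcn2 and Saa3. Hp, C4b, Cfb and Serping1 had no entry. The 250 bases before the gene start are printed for 3 of them, Saa3 and C3, which were lower in K68R, and Lcn2, whose values overlapped. Capitals mark matches, on either strand, to a C/EBP motif (TTNNGNAA), a STAT motif (TTCNNNGAA), an interferon-stimulated response element (ISRE) or the NF-kB consensus. Saa3 lies at chr7:46715677-46715926, C3 at chr17:57228137-57228386 and Lcn2 at chr2:32387740-32387989, all on the minus strand.
Saa3: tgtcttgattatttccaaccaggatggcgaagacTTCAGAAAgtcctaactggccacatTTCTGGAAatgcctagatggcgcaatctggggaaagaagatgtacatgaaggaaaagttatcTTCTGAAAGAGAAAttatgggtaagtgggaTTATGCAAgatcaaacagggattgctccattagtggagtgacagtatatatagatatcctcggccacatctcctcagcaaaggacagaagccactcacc
C3: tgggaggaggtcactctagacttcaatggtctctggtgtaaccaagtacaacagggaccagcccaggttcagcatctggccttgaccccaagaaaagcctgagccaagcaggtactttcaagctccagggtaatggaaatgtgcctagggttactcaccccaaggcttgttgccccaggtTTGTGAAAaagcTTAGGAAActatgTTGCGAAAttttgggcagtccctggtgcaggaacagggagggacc
Lcn2: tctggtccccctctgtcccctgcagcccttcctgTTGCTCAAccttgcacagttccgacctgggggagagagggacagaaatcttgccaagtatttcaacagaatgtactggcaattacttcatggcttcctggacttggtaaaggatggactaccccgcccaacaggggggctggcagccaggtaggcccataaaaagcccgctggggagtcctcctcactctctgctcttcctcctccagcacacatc
The Saa3 window held 4 C/EBP matches and 1 ISRE match on the opposite strand, which ran from base -125 to base -116 before the start and overlapped the third C/EBP match. The C3 window held 3 C/EBP matches between bases -70 and -38, and the match closest to the start fitted the motif on both strands. Lcn2 held 1 C/EBP match, TTGCTCAA at bases -216 to -209. C1ra had 2 C/EBP matches, and the windows of the 2 annotated C1s1 starts had 2 and 1. None of these windows matched the STAT or the NF-kB motif. Over all 32851 promoters of the table, 36.8% held the C/EBP motif, 7.02% the STAT motif, 3.9% the NF-kB consensus and 2.98% the ISRE. A match of letters is a description and does not show that a factor binds there.

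Library totals ran from 26200088 to 31738219 read pairs in K68R and from 30856781 to 40691447 in WT. Levels are given as CPM, read pairs scaled to the TMM-adjusted library size, and a floor of 3 counts was 0.0962 to 0.116 CPM in the K68R libraries and 0.0728 to 0.0959 CPM in the WT libraries. Intervals and floors cover counting error only. Sod2, the mutated gene (chromosome 17, 13226726 to 13237006, plus strand, mm39), had 48.9, 45.6 and 47.2 CPM in K68R and 71.8, 68.9 and 69.2 CPM in WT. Its counts do not tell the K68R codon from the WT codon and so do not check the genotype. Genes of at least 4000 exonic bases and 55% GC held 8.69% to 8.78% of the counts in K68R and 2.5% to 2.51% in WT, so each fold change was also computed after correction by length and GC offsets. The part of length and GC content in the members' differences was not tested otherwise. In such bulk samples, fewer cells of a type and less RNA per cell cannot be told apart.

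In 8 of the 9 members the 3 K68R values lay wholly below the 3 WT values, and in Lcn2 they overlapped. Of all 16730 genes tested, 82.3% showed such a separation in one direction or the other. The same 8 were past the threshold applied to every gene, an adjusted p under 0.05 in edgeR's quasi-likelihood test, which 81.4% of the genes passed in either direction and 40.5% as lower. For the members this threshold only sorts values that were already known and is no evidence of a difference. Of the 9 members, 7 were at least 2-fold lower, against 7.57% of all genes, and 3 of 9 at least 4-fold lower, against 1.66%. The median log2 fold change of K68R over WT was -1.60 over the members and -0.01 over all genes tested. Because the 9 were chosen with this contrast in view, nothing is read from these counts. All 9 passed the filter on low counts, but Hp, C4b and Saa3 passed through the WT libraries alone. Lcn2 exceeded the filter level of 0.317 CPM in 3 K68R libraries and 1 WT library, and C3 in 2 K68R and 3 WT libraries. The other 4 members (Cfb, C1s1, C1ra and Serping1) exceeded it in every library.

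**Figure D1:**
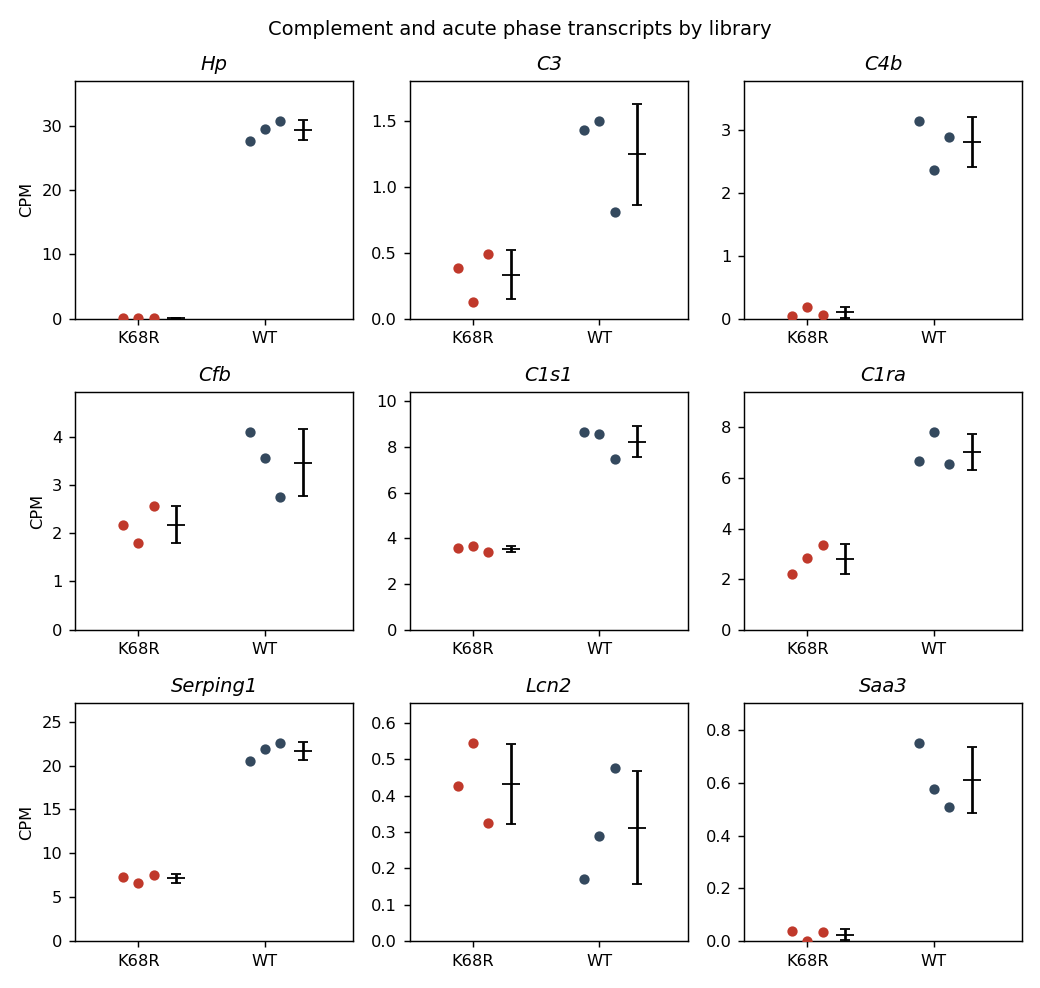
CPM of the 9 transcripts in each library (points, 3 per genotype, K68R left of WT) with the mean and SD beside them. Each panel has its own vertical axis from 0. The K68R points lie below the WT points in every panel except Lcn2, where they overlap.

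Hp encodes haptoglobin, the plasma protein that binds free haemoglobin, which liver and adipocytes secrete (chromosome 8, 110301760 to 110305804, minus strand, mm39). Its counts were 2, 1 and 5 in the K68R libraries and 1144, 923 and 1033 in the WT libraries. These corresponded to 0.0775, 0.0321 and 0.162 CPM in K68R and 27.7, 29.5 and 30.8 CPM in WT. Thus Hp was at or near the floor in K68R and moderately abundant in every WT library. The summed counts, 8 in K68R and 3100 in WT, put Hp 321-fold lower in K68R (exact binomial 95% interval 163-fold to 745-fold). The fitted log2 fold change was -8.27 (SE 0.163), and 5 of the 16730 genes tested had a lower one. Without K68R replicate 3, which held 5 of the 8 counts, it was -9.02. Hp lay at the 81.6th percentile of genes tested by level per exon length in WT and at the 2.43rd in K68R.

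Saa3 encodes a serum amyloid A protein that in mice is made mainly outside the liver, in macrophages, adipocytes and stromal cells (chromosome 7, 46361422 to 46365100, minus strand). It had 1, 0 and 1 counts in K68R and 31, 18 and 17 counts in WT. The level was 0.0387, 0 and 0.0324 CPM in K68R, all under the floor, and 0.752, 0.576 and 0.507 CPM in WT. The ratio of summed counts, 2 against 66, put it 27.4-fold lower in K68R (exact binomial 95% interval 7.28-fold to 231-fold). Lcn2 encodes lipocalin-2, which withholds iron from bacteria by binding their siderophores (chromosome 2, 32274649 to 32277751, minus strand). Its counts were 11, 17 and 10 in K68R and 7, 9 and 16 in WT, or 0.426, 0.545 and 0.324 CPM in K68R and 0.17, 0.288 and 0.477 CPM in WT. The groups overlapped, and the log2 fold change was 0.50 (SE 0.417). At 38 counts in K68R and 32 in WT, the ratio of K68R to WT was 1.43 with an exact binomial 95% interval from 0.872 to 2.37, which includes 1 and covers counting error only. With the length and GC offsets the log2 fold change of Lcn2 was 1.07, past the threshold as higher, so its place depends on that correction.

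The proteases that start the classical branch, C1ra and C1s1, moved by similar amounts. C1ra encodes C1r (chromosome 6, 124489580 to 124500399, plus strand) and C1s1 encodes C1s (chromosome 6, 124507303 to 124519340, minus strand), and the genes are neighbours. C1ra had 2.21, 2.82 and 3.37 CPM in K68R and 6.67, 7.83 and 6.56 CPM in WT. C1s1 had 3.56, 3.65 and 3.4 CPM in K68R and 8.66, 8.57 and 7.46 CPM in WT. Every K68R library was below every WT library for both genes, with log2 fold changes of -1.31 (SE 0.127) for C1ra and -1.22 (SE 0.111) for C1s1. Per exon length the C1s1 level was 1.16 ± 0.271 times that of C1ra in K68R and 1.05 ± 0.0987 times in WT (SD, n = 3), a difference smaller than the spread. Both genes have a near-identical copy, C1rb and C1s2, and read pairs that fit both copies were not counted. The copies were barely detected. C1rb had 1, 2 and 3 counts in K68R and 1, 1 and 3 in WT, C1s2 had 3, 4 and 7 in K68R and 4, 9 and 5 in WT, and neither was tested.

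Serping1 encodes the C1 inhibitor, the serpin that inactivates C1r and C1s (chromosome 2, 84595704 to 84605748, minus strand). It was the most abundant member after Hp in WT and the most abundant in K68R. Its level was 7.32, 6.6 and 7.52 CPM in K68R and 20.5, 21.9 and 22.6 CPM in WT, without overlap and with little spread in either genotype. The log2 fold change was -1.60 (SE 0.074), a 3.03-fold lower level in K68R. The level of Serping1 per exon length, divided by the summed levels of C1ra and C1s1, was 2.04, 1.63 and 1.76 in K68R and 2.15, 2.12 and 2.58 in WT. The transcript of the inhibitor was thus more abundant than those of its target proteases together in all 6 libraries.

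The C4 genes differed in an uneven way. C4b encodes complement C4, the substrate of C1s (chromosome 17, 34947249 to 34962876, minus strand), and C4a, nearby on the same strand (35028069 to 35042436), encodes the closely similar sex-limited protein. C4b had 1, 6 and 2 counts in K68R and 130, 74 and 97 counts in WT. C4a had 28, 29 and 24 counts in K68R and 15, 8 and 10 counts in WT. Of the reads assigned to either gene, C4b held 3.45%, 17.1% and 7.69% in K68R and 89.7%, 90.2% and 90.7% in WT. The exact binomial 95% intervals of these shares reached at most 33.6% in K68R and came down to 81.7% at the lowest in WT. C4b therefore predominated in every WT library and C4a in every K68R library. Together the copies had 1.03 ± 0.16 CPM in K68R, against 3.11 ± 0.455 CPM in WT (SD, n = 3). The log2 fold change of C4b was -4.73 (SE 0.331). It was -5.64 without K68R replicate 2, which held 6 of its 9 counts, and -5.93 with the length and GC offsets. The fold change of C4a was 1.56 (log2, SE 0.337, adjusted p = 2.76e-05, edgeR), but 0.25 with the offsets (adjusted p = 0.505). Only read pairs that fit a single place were counted, so the shares rest on the positions at which the copies differ.

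**Figure D2:**
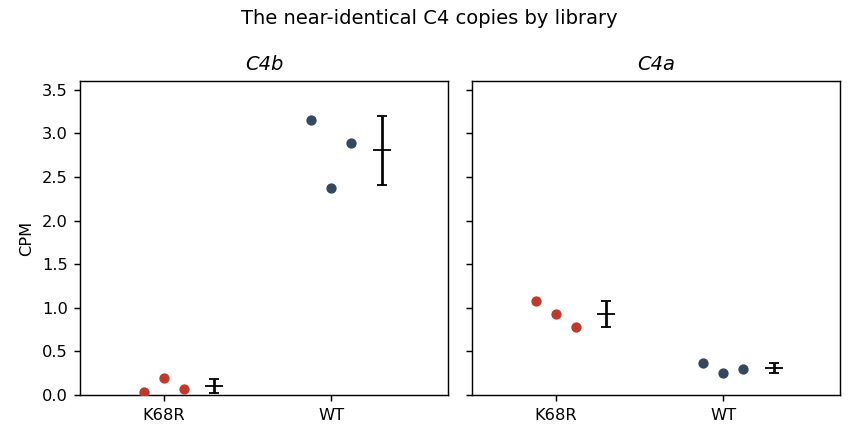
CPM of C4b and C4a in each library (points, 3 per genotype, K68R left of WT) with mean and SD, on a common vertical axis. C4b is at 2.37 to 3.15 CPM in WT and at most 0.192 CPM in K68R, while C4a is at 0.778 to 1.08 CPM in K68R and at most 0.364 CPM in WT.

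Farther down the cascade, C3 encodes the central component whose cleavage all branches share (chromosome 17, 57510967 to 57535136, minus strand). It was scarce in these cells, with 10, 4 and 15 counts in K68R and 59, 47 and 27 counts in WT. The level was 0.387, 0.128 and 0.486 CPM in K68R and 1.43, 1.5 and 0.805 CPM in WT. The genotypes did not overlap, but WT replicate 3 was well below the other WT libraries and K68R replicate 2 below the other K68R libraries. The log2 fold change was -1.91 (SE 0.339) and -2.56 with the offsets. Cfb encodes factor B, the protease of the alternative branch (chromosome 17, 35075350 to 35081492, minus strand). It had the smallest decrease, with 2.17, 1.79 and 2.56 CPM in K68R and 4.1, 3.55 and 2.74 CPM in WT. The highest K68R value and the lowest WT value were close, and the log2 fold change was -0.68 (SE 0.164). The 3 members C3, C4b and Cfb lie on chromosome 17, as Sod2 does. None of the 9 members shared an exonic base with another annotated gene.

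**Figure D3:**
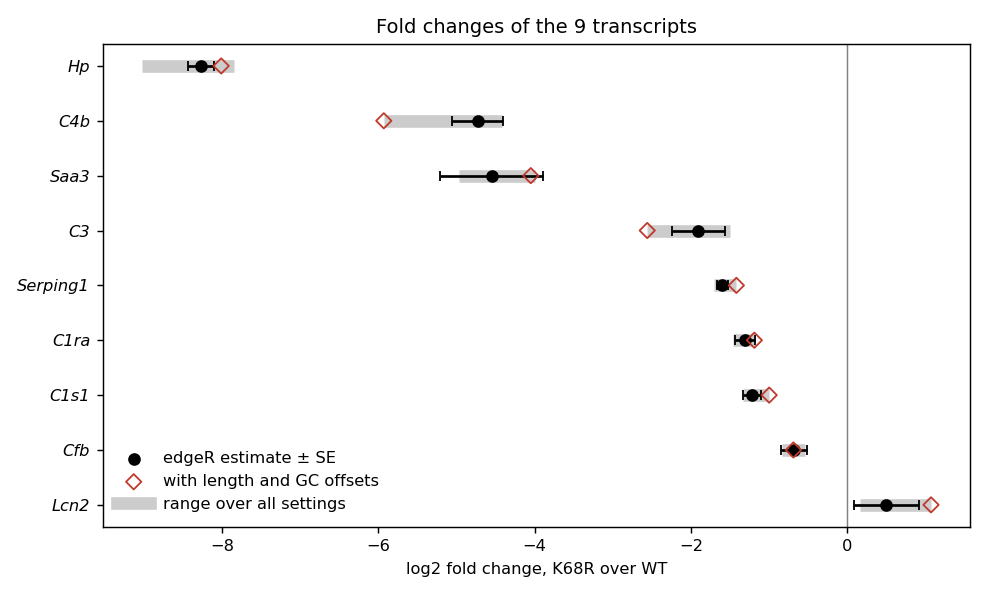
Log2 fold change of K68R over WT for each transcript, with the edgeR estimate and its SE (black), the estimate with length and GC offsets (open diamonds) and the range over all settings (grey). The estimates run from -8.27 for Hp to 0.50 for Lcn2, and only Lcn2 is above 0.

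The order of the members by level per exon length (CPM per kilobase of exon, RPKM) differed between genotypes. In K68R, Serping1 came first at 3.89 ± 0.262 RPKM, ahead of C1s1 at 1.14 ± 0.0409, C1ra at 1.01 ± 0.211 and Cfb at 0.785 ± 0.138 RPKM (SD, n = 3). The neighbours among C1s1, C1ra and Cfb overlapped in that order. Lcn2 followed at 0.506 ± 0.13 RPKM, and Hp, C3, Saa3 and C4b lay at 0.0673 RPKM or less, each overlapping the next. In WT, Hp came first at 21.8 ± 1.15 RPKM, Serping1 second at 11.8 ± 0.577, and C1s1 and C1ra, which overlapped, at 2.65 ± 0.216 and 2.54 ± 0.255 RPKM (SD, n = 3). Cfb and Saa3 overlapped at 1.25 ± 0.246 and 1.15 ± 0.238 RPKM, and C4b, Lcn2 and C3 were lowest, at 0.512 ± 0.0731, 0.365 ± 0.182 and 0.239 ± 0.0737 RPKM, each overlapping the next. Summed over the 9 members, the level was 16.6 ± 1.12 CPM in K68R, against 74.7 ± 1.46 CPM in WT (SD, n = 3). Hp made up 0.528 ± 0.353% of that sum in K68R and 39.3 ± 1.65% in WT, and Serping1 43.0 ± 1.82% in K68R and 29.0 ± 1.07% in WT. Without Hp the sum was 16.6 ± 1.1 CPM in K68R and 45.4 ± 1.25 CPM in WT. Of this, Serping1 averaged 7.15 CPM in K68R and 21.7 CPM in WT. By these averages the share of Serping1 was not larger in K68R once Hp was left out.

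The other genes of the complement system and the acute phase response were read against the shares of all genes tested, of which 40.8% were called higher and 40.5% lower. No test set a list against these shares. In the classical and lectin branches 6 of 11 tested genes rose in K68R, 2 fell and 3 were not called; the median log2 fold change was 0.36. Masp1, a protease of the lectin branch, averaged 157 ± 3.15 CPM in K68R, against 40.8 ± 1.25 CPM in WT (SD, n = 3), 3.86-fold higher (adjusted p = 5.28e-58, edgeR). C2, the partner of C4 and like it a substrate of C1s, was 1.73-fold lower, with 7.2 ± 0.609 CPM in K68R against 12.4 ± 0.728 CPM in WT (adjusted p = 2.72e-13), and Colec12, a scavenger collectin, 1.41-fold lower (adjusted p = 2.62e-30). C1qc, a chain of the recognition molecule C1q that macrophages make, was 1.37-fold higher (adjusted p = 1.46e-05). C1rl, a C1r-like protease, was 1.42-fold higher (adjusted p = 0.036), but its values overlapped and 7.61% of its exonic bases are shared with another gene. Its adjusted p was 0.0645 without K68R replicate 1, 0.129 without K68R replicate 3, 0.222 without WT replicate 2 and 0.0997 without WT replicate 3. It was 0.105 with upper quartile normalization, 0.0884 with no filter and 0.184 with DESeq2. Of 3 tested genes of the alternative and terminal branches, C8g, a chain of the membrane attack complex, was 1.61-fold higher (adjusted p = 3.41e-04). Cfd, the factor D protease that adipocytes secrete and that cleaves factor B, had 0, 4 and 1 counts in K68R and 257, 207 and 217 counts in WT. Its log2 fold change was -6.73 (adjusted p = 1.89e-32), and -8.23 without K68R replicate 2. The remaining 6 terminal genes were too low to be tested.

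Regulators that restrain complement were mixed, with 4 of 10 tested genes up in K68R, 2 down, 4 not called and a median log2 fold change of 0.53. The membrane regulators Cd59a and Cd55 were 2.43-fold and 1.71-fold higher (adjusted p = 8.12e-14 and 2.05e-23, edgeR), with 19.3% of the exonic bases of Cd55 shared with another gene. Cr1l, the rodent regulator Crry, was 1.68-fold lower (adjusted p = 2.46e-26), with 11.1% of its exonic bases shared, and Clu, the chaperone clusterin, 1.78-fold lower (adjusted p = 3.18e-25). Among 6 tested complement receptors, which are mostly genes of myeloid cells, 3 were lower and none higher. C3ar1, C5ar1 and Itgam had log2 fold changes of -0.20, -0.51 and -0.40 (adjusted p = 0.00255, 0.000766 and 0.00152). With the offsets C3ar1 was at 0.11 and C5ar1 was no longer called (adjusted p = 0.0512).

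Of 30 other acute phase proteins listed, 14 were tested, of which 8 fell, 3 rose and 3 were not called (median log2 fold change -0.76, and -0.53 with the offsets). Beside these counts, 40.5% of all genes tested were lower and 40.8% higher, and the list was chosen with earlier results known. Lrg1, a secreted leucine-rich glycoprotein, had 0, 1 and 1 counts in K68R and 99, 91 and 85 counts in WT, so its summed counts were 114-fold lower in K68R (exact binomial 95% interval 31.2-fold to 946-fold). Steap4, a metalloreductase of adipocytes, averaged 0.0966 ± 0.0851 CPM in K68R, against 3.43 ± 0.0516 CPM in WT (SD, n = 3; adjusted p = 1.3e-23). Slpi, a secreted protease inhibitor, was 19.4-fold lower, with 0.448 ± 0.202 CPM in K68R against 8.7 ± 0.763 CPM in WT (adjusted p = 1.03e-32). Going the other way, Hpx, the haem scavenger hemopexin, was 6.08-fold higher, with 1.4 ± 0.0368 CPM in K68R against 0.229 ± 0.0858 CPM in WT (adjusted p = 8.67e-11). The haemoglobin scavenger Hp and the haem scavenger Hpx thus had opposite signs. Cp, the copper ferroxidase ceruloplasmin, was 1.62-fold higher (adjusted p = 1.47e-10) and Mt1, a metallothionein, 1.25-fold higher (adjusted p = 1.94e-16). Of the listed genes 7 had no count in any library, among them Saa1, Saa2, Apcs, Fga and Hamp.

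**Figure D4:**
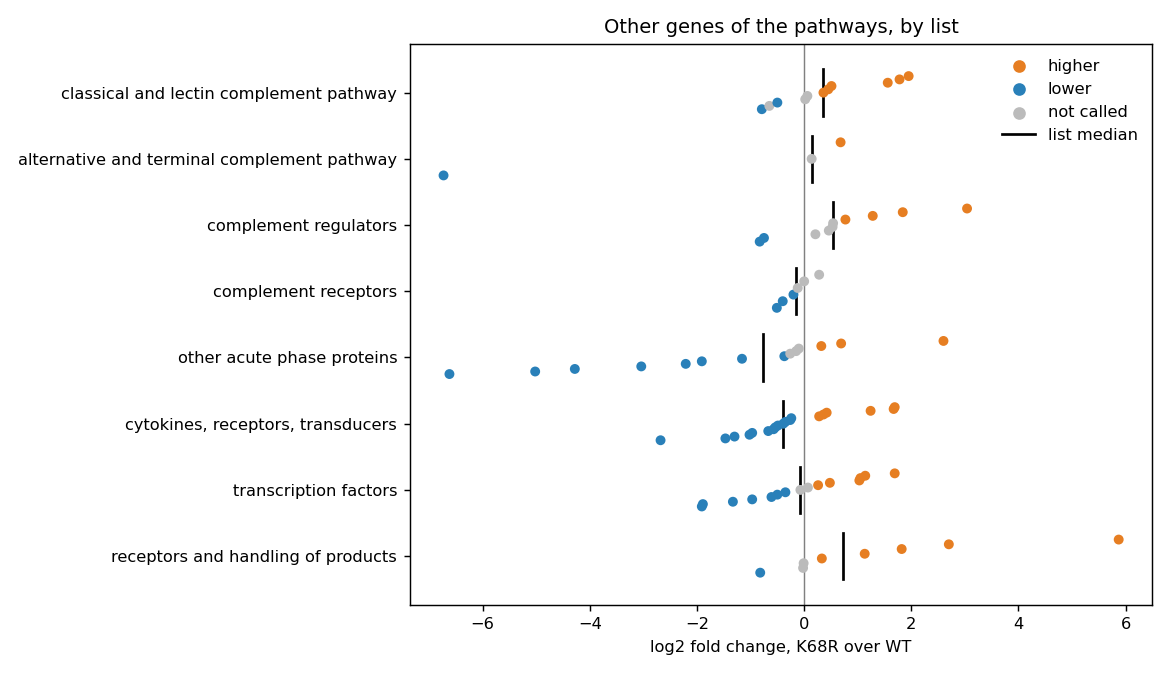
Log2 fold change of K68R over WT for each tested gene of 8 lists that hold no member (points), coloured by whether edgeR called it higher, lower or neither, with the list median as a bar. The acute phase list has the lowest median, -0.76, and every list except the receptors of complement holds genes on both sides that were called.

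Among the cytokines, receptors and transducers that induce acute phase genes, 13 of 19 tested genes were lower and 6 higher, with a median log2 fold change of -0.39. With the offsets 13 were lower and 3 higher, with a median of -0.67. Il1r1, the interleukin-1 receptor, was 6.4-fold lower, with 26 ± 1.45 CPM in K68R against 167 ± 6.49 CPM in WT (SD, n = 3; adjusted p = 3.13e-60). Il6, the main inducing cytokine, was 2.77-fold lower, with 1.66 ± 0.0297 CPM in K68R against 4.64 ± 0.601 CPM in WT (adjusted p = 3.08e-13), and the kinase Jak2 2.47-fold lower (adjusted p = 3.8e-44). Il6ra, the interleukin-6 receptor chain, the cytokine Lif and the kinase Tyk2 were 2.36-fold, 3.19-fold and 3.23-fold higher (adjusted p = 2.69e-17, 7.08e-32 and 2.47e-34). With the offsets the log2 fold changes of Lif and Tyk2 were 0.83 and 0.22. Stat3, chosen after its values were seen, averaged 175 ± 4.57 CPM in K68R, against 131 ± 3.73 CPM in WT (SD, n = 3). It was 1.34-fold higher (adjusted p = 2.28e-24, edgeR), and 7.95% of its exonic bases are shared with another gene. With the offsets the log2 fold change of Stat3 was -0.03 (adjusted p = 0.342). Il1b had no count, and Il1a, Tnf and Osm were too low to be tested.

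Of the transcription factors of these genes the calls lay in both directions, with 6 of 15 up in K68R, 7 down, 2 not called and a median log2 fold change of -0.07. With the offsets 2 were up and 12 down, with a median of -0.63. Irf9 and Irf1, which carry interferon signals, were 3.76-fold and 2.51-fold lower (adjusted p = 5.37e-44 and 6.6e-31). Irf9 averaged 14.7 ± 1.52 CPM in K68R, against 55.5 ± 1.48 CPM in WT (SD, n = 3). The NF-kB subunits Nfkb1, Nfkb2 and Rela were 2.21-fold, 3.23-fold and 2.07-fold higher (adjusted p = 5.88e-37, 2.29e-43 and 1.99e-39). With the offsets Nfkb1 was at 0.90 on the log2 scale, but Nfkb2, which shares 13.7% of its exonic bases, was at -1.44 and Rela at -0.35. Cebpb, Cebpd and Cebpa, C/EBP factors chosen after their values were seen, had log2 fold changes of 1.03, 0.48 and 0.07. With the offsets these were -0.15, 0.72 and -1.17. Of the receptors and handling proteins of the secreted products 5 of 8 rose, 1 fell and 2 were not called (median log2 fold change 0.73). With the offsets 4 were higher and 2 lower, and the median was 0.06. Lrp1, an endocytic receptor that takes up haem bound to hemopexin, was 58.5-fold higher, with 1753 ± 21.9 CPM in K68R against 29.9 ± 0.708 CPM in WT (SD, n = 3; adjusted p = 3.27e-94), with 3.19 (log2) after the offsets. Slc22a17, a lipocalin-2 receptor, was 6.49-fold higher (adjusted p = 2.53e-38), but at -0.10 (log2) with the offsets. Ager, a pattern receptor, was 3.53-fold higher (adjusted p = 1.13e-06), and the scavenger receptor Cd36 1.77-fold lower (adjusted p = 3.61e-25). Cd163, the haptoglobin receptor of macrophages, was too low to be tested.

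Markers of other cell types were read beside the members. The summed level of 8 adipocyte markers was 59.4 to 64.0 CPM in K68R and 232 to 245 CPM in WT, and all 7 tested markers were lower. Lpl, the most abundant of them, averaged 50.7 CPM in K68R and 132 CPM in WT and was 2.61-fold lower. Pparg averaged 6.55 and 27.0 CPM, and Fabp4 4.28 and 56.4 CPM, in K68R and WT. The adipocyte markers named other than Lpl were chosen after their values were seen. The 3 K68R libraries together held 1 count of Adipoq, which encodes the hormone adiponectin, against 1042 counts in WT. Plin1, a lipid droplet coat protein, had none in any K68R library, and Lep was too low to be tested. Adipocytes make several of the complement and acute phase proteins. Not every member went the way of the adipocyte markers, as the values of Lcn2 overlapped (log2 fold change 0.50). The part of adipocytes in the members' differences was not tested. The 6 epithelial markers were all lower too, with a summed level of 18.4 to 20.5 CPM in K68R and 46.0 to 47.6 CPM in WT. Krt8 and Krt18, the most abundant of them, averaged 7.26 and 10.2 CPM in K68R and 16.5 CPM each in WT. Epcam and Cdh1 were 2.18-fold and 1.85-fold lower. The largest decreases were those of Krt14 and Krt5, keratins of basal epithelium chosen after their values were seen. They averaged 0.18 and 0.0603 CPM in K68R and 6.32 and 3.97 CPM in WT. The part of epithelial cells in the members' differences was not tested either.

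**Figure D5:**
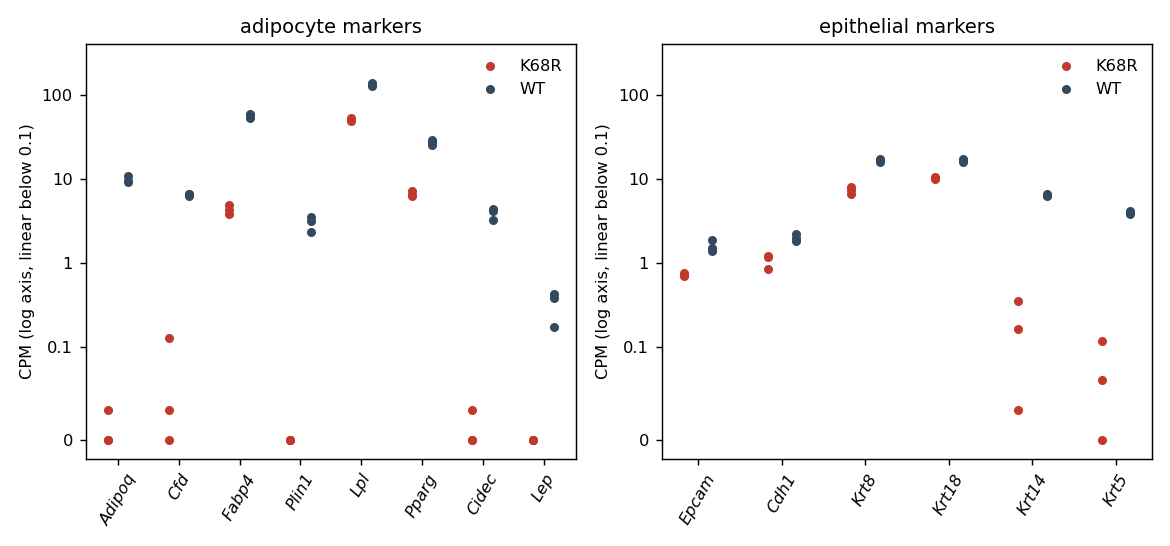
CPM of 8 adipocyte and 6 epithelial markers in each library (points, 3 per genotype, K68R left of WT at each gene) on a log axis that is linear below 0.1 CPM. Every marker is lower in K68R, and Plin1 and Lep have no count in any K68R library.

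Macrophage markers had a summed level of 150.2 to 157 CPM in K68R and 165 to 167 CPM in WT, with 3 of 10 higher, 4 lower and 3 not called. Single markers moved in opposite directions: Laptm5 was 3.15-fold higher and Fcgr1 3.01-fold lower, both chosen after their values were seen. With the offsets 6 were higher and 2 lower. Hepatocyte markers summed to 1.04 to 1.43 CPM in K68R and 2.01 to 2.42 CPM in WT. Albumin itself (Alb) averaged 0.0214 CPM in K68R and 0.0441 CPM in WT, both averages below the floor. Afp, the fetal liver protein alpha-fetoprotein, had 3, 1 and 3 counts in K68R and 30, 27 and 46 counts in WT, 11.8-fold lower (adjusted p = 3.07e-10, edgeR). Of the 8 hepatocyte markers 2 were tested, and Afp was the 1 that was called. The other, Apoa2, averaged 1.06 CPM in K68R and 1.07 CPM in WT, with a log2 fold change of -0.04 (adjusted p = 0.893, edgeR). The part of liver cells in the members' differences was not tested. No neutrophil marker was abundant enough to be tested, and the 8 summed to 0.194 to 1.56 CPM in K68R and 0.119 to 0.34 CPM in WT. Endothelial markers summed to 96.1 to 97.9 CPM in K68R and 24.7 to 27.2 CPM in WT, most of it from Kdr, with 2 of 5 higher and 3 not called. The fibroblast markers were abundant in both genotypes, at 10765 to 10874 CPM in K68R and 7172 to 7263 CPM in WT, with 4 of 9 higher, 4 lower and 1 not called. Vim, the mesenchymal filament vimentin, was the most abundant of them and averaged 4983 ± 29.6 CPM in K68R, against 4905 ± 41.8 CPM in WT (SD, n = 3), and was the marker not called. The others differed widely and in both directions, and those named here were chosen after their values were seen. The collagen gene Col1a1 was 14.8-fold higher, while Pdgfra, Lum and Dcn were 5.56-fold, 4.41-fold and 4.35-fold lower. The log2 fold change of Col1a1 was 3.89, but 1.68 with the offsets. Those of Pdgfra, Lum and Dcn were -3.12, -1.74 and -1.74 with the offsets. With the offsets 4 fibroblast markers were higher and 5 lower.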

How the data were processed

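The deposited table holds raw read-pair counts for every gene in each of the 6 libraries. According to its header (per the file headers), pairs were assigned by featureCounts to RefSeq exons of mm39, with no strand setting and leaving out multi-mapped reads, and each gene's exonic length is listed. The submitters' processing notes name HISAT2 2.2.1 and featureCounts 2.0.6 beside SAMtools and bcl2fastq. Libraries were grouped by the genotype in their titles. Libraries of 1 genotype differed by more than sampling noise (chi-square per gene 1.85 to 2.31), so all 6 were kept. The labels call them biological replicates without naming embryos or cultures, so p-values reflect the spread among these samples alone, and that spread may be technical.

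All genes were fitted in R 4.3.3 with edgeR 4.0.16 (filterByExpr, TMM, robust quasi-likelihood F test, Benjamini-Hochberg over all genes tested, called at an adjusted p under 0.05). The procedure was tested on simulated data. CPM used TMM-scaled library sizes. A standard error is the absolute log2 fold change divided by the square root of F. Alternatives were a replicate block, upper quartile normalization, DESeq2 size factors, a filter of 1 CPM in 3 libraries, no filter, DESeq2 1.42.0, limma-voom (limma 3.58.1), an adjusted p under 0.01, a 1.5-fold bound, offsets per library from a tensor smooth in GC content and log2 exon length (mgcv 1.9.3, GC content averaged by length over GENCODE M21 transcripts of each symbol) and leaving out each library. All 9 members had a GC value. The members and gene lists were chosen with earlier results of these data known. Named from each list were at most 3 called genes per direction, taken by fold change among those that reached 1 CPM in either genotype, and of the marker lists the most abundant marker and any other marker a result turns on. Some genes that this rule names are not reported here.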

Additional observations from a re-analysis of the deposited data

How the results depend on the processing

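Under all 16 alternatives each of the 8 lower members kept a negative log2 fold change wherever it was tested. The cutoff of 0.01 and the 1.5-fold bound left the fold changes of the main fit as they were, so they could not turn a sign. The members were chosen with this contrast known, so the kept signs are a description. From 6 to 8 members were called lower, against 8. The 6 came with the filter of 1 CPM in 3 libraries, under which C3, Saa3 and Lcn2 were not tested. The median over the members ran from -1.71 to -1.42, and from -1.65 to -1.50 when 1 library was left out. With length and GC offsets 1 member, Lcn2, was called higher. The median log2 fold change of all genes was -0.01, and -0.12 with upper quartile normalization, 0.15 with no filter, 0.17 with DESeq2 and -0.07 with the offsets. Against the 1.5-fold bound 4365 genes were higher and 2490 lower, against 6833 and 6780, and the listed genes called fell to 3 higher and 1 lower in the classical and lectin list, 0 higher in the alternative and terminal list, 0 lower complement receptors, 1 higher acute phase protein, 3 higher and 5 lower cytokine genes and 4 lower transcription factors. With the offsets there were 2 higher alternative and terminal genes, 1 lower complement receptor, 3 higher cytokine genes, and 2 higher and 12 lower transcription factors. Of the receptors and handling proteins 2 were lower with upper quartile normalization, with no filter and with the offsets, against 1. Of the 37 list genes picked by the naming rule 9 did not pass the 1.5-fold bound, and 4 turned their sign with the offsets. Leaving out 1 library gave 6760 to 6849 higher and 6643 to 6802 lower genes. Same-numbered libraries did not deviate together (r = -0.00947, 0.0135 and 0.013), and with the replicate number as a block 6804 genes were higher and 6763 lower, and 8 members were lower. Members at 1 to 6 counts per K68R library (Hp, C4b) and Saa3 at 0 or 1 are limited by depth: their fold changes have wide counting intervals.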
